A study of Mus musculus with 6 samples.

Results

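Macrophages of the fetal liver were followed through 31 genes that mark them or carry out their work, each read on whole fetal livers of Tmod3 knockout and wild type mouse embryos. A gene was taken where a probe set of the array carried its symbol alone, and all 31 of 31 were found, among 19938 genes measured in all. Each of the 31 had 1 such probe set. The KO group was 3 fetal livers of Tmod3-/- embryos at E14.5, labelled as small and from anemic embryos. The WT group was 3 fetal livers of Tmod3+/+ embryos at E14.5, labelled as normal. All 6 embryos were of the C57BL/6J strain, and the series text calls the embryos of each experiment independent. The sources used here do not say how the Tmod3 allele was made, and the labels name no agent. Total RNA of each liver was hybridised to 1 Affymetrix MoGene 1.0 ST array. Levels below are the deposited values, taken as log2, and SE stands for the standard error of a log2 fold change.

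In fetal liver, macrophages sit at the centre of erythroblastic islands, clusters in which red cell precursors mature while attached to them. When an erythroblast expels its nucleus, the macrophage engulfs it through receptors for dying cells, digests its DNA and protein in lysosomes, and returns iron from heme to the circulation. The lineage depends on the growth factor receptor CSF1R, and its members carry scavenger receptors, Fc receptors with their signalling adaptors, and complement proteins of the C1q type.

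Tmod3 encodes a protein that caps the slow-growing ends of actin filaments, and it served to check the labels. Its level was 1.32, 2.36 and 1.30 in KO livers, against 4.49, 4.78 and 4.90 in WT livers, a log2 fold change of -3.06 (SE 0.27, limma adjusted p = 0.0225). All KO arrays lay below all WT arrays. That adjusted p was 0.0911 without KO replicate 1, 0.109 without KO replicate 3, 0.255 without WT replicate 2 and 0.0856 without WT replicate 3. Array medians lay between 1.36 and 1.43, a level used below as a mark of dim probe sets. Of the macrophage genes, 13 lay above the median of every array and 5 below it in every array, namely C1qa, Vsig4, Cd163, Folr2 and Nr1h3. Of the main cells of the tissue, 13 of 13 measured erythroblast markers and 15 of 16 measured hepatoblast markers lay above the medians of all 6 arrays. The macrophage label thus rests on a part of its markers, and defining genes such as Cd163 and C1qa are given below as values near the floor of the measurement.

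The macrophage genes with the smallest p, Fcer1g, Ctsb, Aif1, Spic and C1qc, were lower in KO livers by their means, but 0 of 31 genes passed the test over all genes. Fcer1g had a log2 fold change of -0.74, Spic -0.85, Ctsb -0.57, Aif1 -0.40 and C1qc -0.31, and these 5 had an unadjusted limma p under 0.05, as did 9.03% of all genes in either direction. Over all 19938 genes, 3 passed at an adjusted p under 0.05, which is 0.015%. An unadjusted p under 0.05 with a lower level in KO livers was found in 5 of 31 macrophage genes, 16.1%, and in 6.44% of all genes. With a higher level it was found in 0 of 31, and in 2.59% of all genes. Level matters for this reading, since 22% of the 4656 genes with a mean of at least 2 were lower at that threshold, against 1.71% of the 15282 genes below it. Of the 31 macrophage genes, 11 had a mean of at least 2, and 4 of these 11, 36.4%, were lower at that threshold, against 1 of 20, 5%, below it. The count of 5 was 1 without KO replicate 3, without WT replicate 2 or without WT replicate 3, where 4.79%, 3.95% and 4.46% of all genes were lower. It was 3 without KO replicate 2 (5.77% of all genes) and 10 without WT replicate 1 (11.2%). It was 8 with array weights (9.93%) and 2 after the arrays were quantile normalized again (4.66%). Whole liver was measured, so fewer macrophages, less RNA per macrophage and lower levels in other cells that share these genes cannot be told apart.

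KO means were below WT means in 23 of the 31 genes and above them in 8, where 48.4% of all genes had a lower KO mean. At a mean of at least 2, this share was 90.9% of the macrophage genes and 76.5% of all genes. Under a mean of 2 it was 65% of the macrophage genes and 39.9% of all genes. The median log2 fold change over the 31 was -0.18, beside 0.01 over all genes. For the 11 macrophage genes with a mean of at least 2 it was -0.50, beside -0.19 over all genes of that level. For the 20 under that mean it was -0.12, beside 0.03 over all genes of that level. Groups did not overlap for 8 genes. The KO arrays were lower for 7, namely Fcer1g, Ctsb, Aif1, C1qb, Vsig4, Lgmn and Nr1h3, and higher for 1, Cd163. Over all genes the groups did not overlap in 13.2%, lower in KO livers in 7.1% and higher in 6.14%. At a mean of at least 2, KO arrays were lower without overlap for 18.2% of the macrophage genes and 18.2% of all genes. Under that mean the shares were 25% of the macrophage genes and 3.71% of all genes. The 95% interval of the log2 fold change held 0 for 26 of the 31 genes, and it reached below -1 for 7 genes and above 1 for 1 gene, Hmox1. At 3 arrays a group these intervals are wide, so a miss of the threshold does not show that a gene was level.

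**Figure D1:**
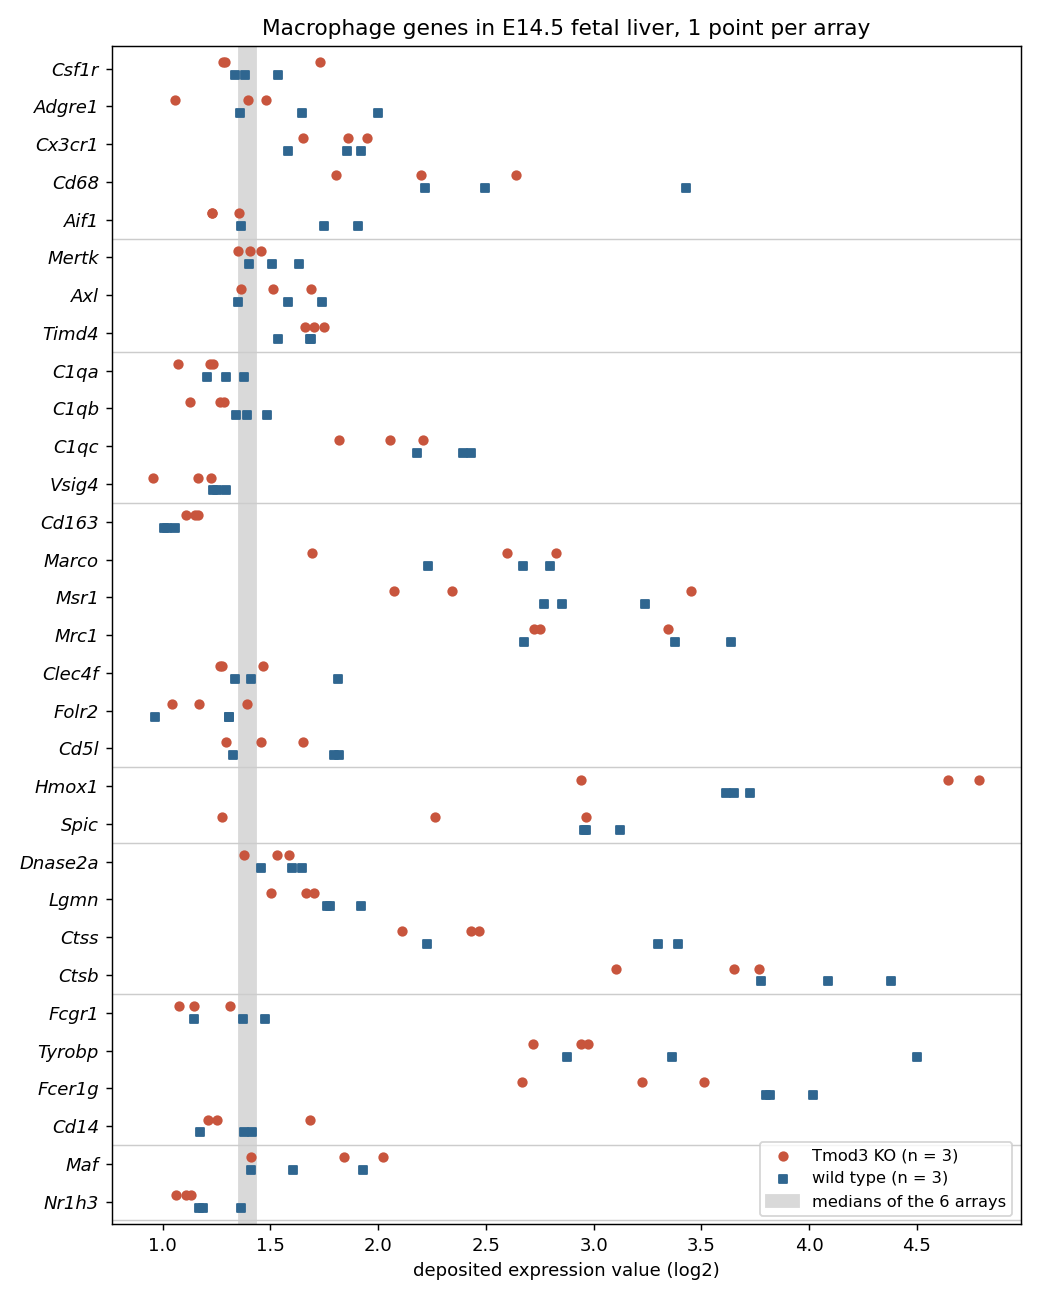
Deposited log2 value of each of the 31 macrophage genes in each array, with KO livers as red circles above WT livers as blue squares and genes grouped by role. The grey band spans the medians of the 6 arrays, and the C1qa, Vsig4, Cd163, Folr2 and Nr1h3 points lie within or below it in both groups.

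**Figure D2:**
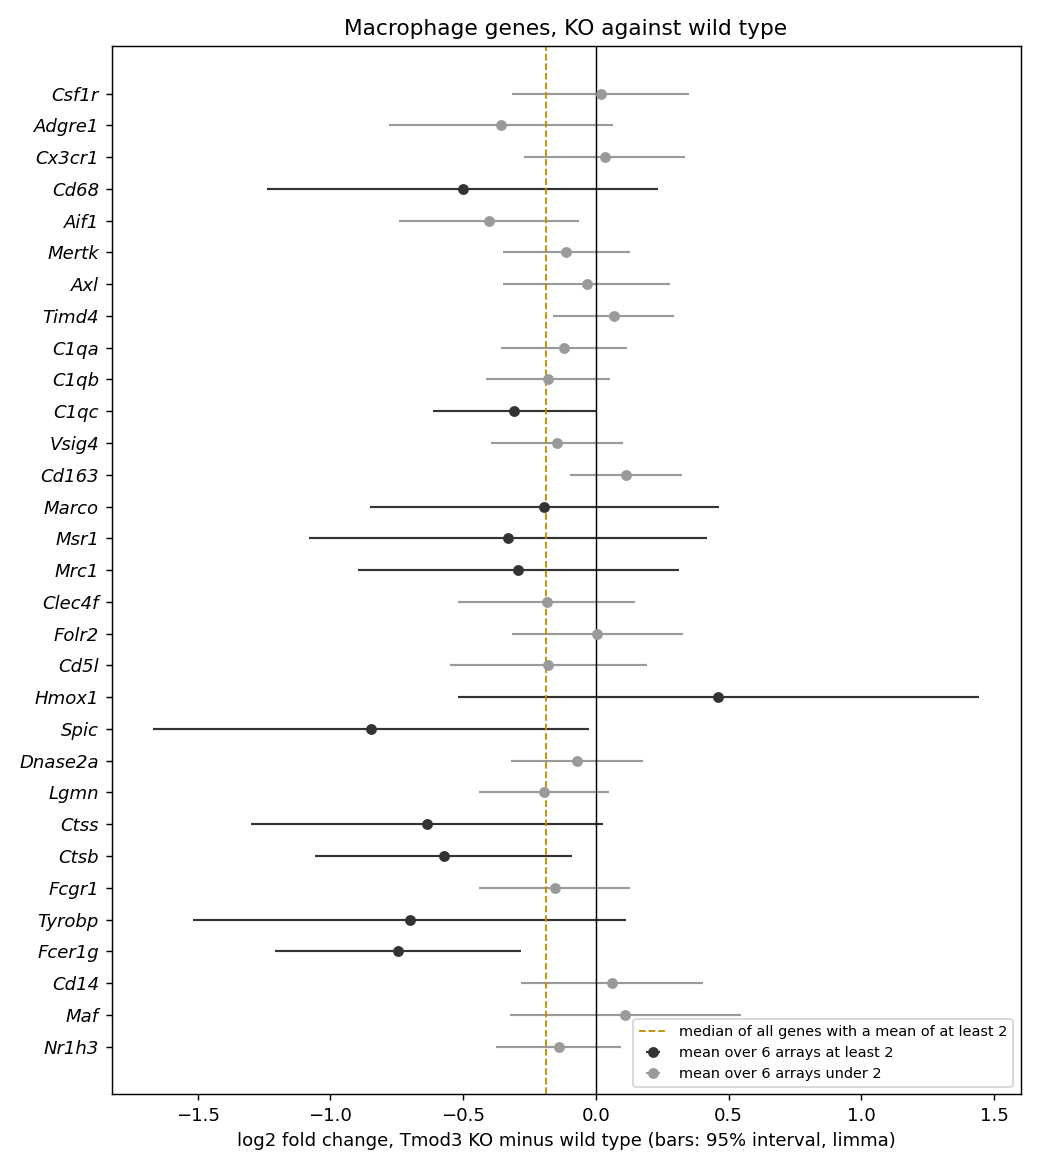
Log2 fold change of KO over WT liver for each macrophage gene with its 95% limma interval, in black for the 11 genes with a mean of at least 2 and in grey for the others. The dashed line marks -0.19, the median of all genes with a mean of at least 2, and 26 intervals hold 0.

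The stretch before the transcription start is shown for the genes with an unadjusted p under 0.05, because many myeloid promoters bind the factor PU.1 there, whose core motif is spelled GAGGAA. Sequences are from RefSeq on GRCm38.p6, 5′ to 3′ on the gene's strand, the 250 bases before the start, and the capitals mark the motif on either strand. They lie on the minus strand at chr1:171234350-171234599 for Fcer1g, chr10:88683024-88683273 for Spic, chr17:35176053-35176302 for Aif1 and chr4:136892915-136893164 for C1qc. Adgre1, C1qa, Cd14, Csf1r, Ctsb, Hmox1, Maf, Msr1 and Tyrobp had no entry in the promoter table.
Fcer1g: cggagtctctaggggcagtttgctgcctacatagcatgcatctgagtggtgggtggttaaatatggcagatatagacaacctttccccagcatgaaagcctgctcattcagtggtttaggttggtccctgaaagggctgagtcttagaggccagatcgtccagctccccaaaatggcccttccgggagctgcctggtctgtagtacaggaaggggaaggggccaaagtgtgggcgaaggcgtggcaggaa
Spic: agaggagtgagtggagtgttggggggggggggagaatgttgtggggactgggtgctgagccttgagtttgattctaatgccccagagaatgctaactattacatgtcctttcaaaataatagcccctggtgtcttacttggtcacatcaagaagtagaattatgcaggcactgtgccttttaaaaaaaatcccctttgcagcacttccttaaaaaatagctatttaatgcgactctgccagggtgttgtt
Aif1: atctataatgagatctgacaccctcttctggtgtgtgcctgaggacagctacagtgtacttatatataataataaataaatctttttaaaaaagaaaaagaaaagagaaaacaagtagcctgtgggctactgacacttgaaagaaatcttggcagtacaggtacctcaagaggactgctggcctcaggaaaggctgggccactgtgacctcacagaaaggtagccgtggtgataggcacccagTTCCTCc
C1qc: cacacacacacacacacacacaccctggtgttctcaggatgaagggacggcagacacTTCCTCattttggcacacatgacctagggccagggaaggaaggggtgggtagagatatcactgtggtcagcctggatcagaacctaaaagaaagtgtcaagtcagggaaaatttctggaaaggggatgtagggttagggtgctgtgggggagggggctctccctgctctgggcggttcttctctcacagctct

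GAGGAA was found 1 time in the Aif1 window and 1 time in the C1qc window, each on the opposite strand as TTCCTC, and in neither the Fcer1g nor the Spic window. The match began 7 bases before the start of Aif1 and 193 bases before that of C1qc. A promoter window was available for 22 of the 31 macrophage genes, in 25 windows, of which 11 held the motif, or 44%. Among all 32817 promoter windows of this length, 23.3% held it. These are matches of letters, and binding was not measured.

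Fc receptors, their adaptors and CD14 include the macrophage gene with the smallest p, although 0 of 4 passed. Fcer1g encodes the common gamma chain through which Fc receptors signal, by a tyrosine motif called ITAM. Its level was 3.51, 3.22 and 2.67 in KO livers, against 3.80, 4.02 and 3.82 in WT livers. Every KO array lay below every WT array, with KO replicate 3 the lowest, while the WT arrays were close together. The log2 fold change was -0.74 (SE 0.20, 95% interval -1.21 to -0.28, limma adjusted p = 0.331), that is 1.68-fold lower in KO livers. It was -0.51 without KO replicate 3 and -0.53 after renewed quantile normalization, when the groups overlapped.

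Tyrobp encodes DAP12, another ITAM adaptor, which serves receptors such as TREM2. It read 2.94, 2.98 and 2.72 in KO livers, against 2.87, 3.36 and 4.50 in WT livers. The 3 KO arrays were alike and WT replicate 1 lay among them, so the groups overlapped and WT replicate 3 carried much of the difference. Tyrobp had a log2 fold change of -0.70 (SE 0.35, limma adjusted p = 0.630), -0.24 without WT replicate 3 and -1.05 without WT replicate 1. The high-affinity IgG receptor gene Fcgr1 had -0.15 (adjusted p = 0.783), at 1.18 ± 0.12 in KO and 1.33 ± 0.17 in WT livers (SD, n = 3 each), near the array medians. Cd14, which encodes a coreceptor for bacterial lipopolysaccharide, had +0.06 (adjusted p = 0.943), and its sign turned without KO replicate 2 or WT replicate 3.

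Related genes of Fc receptor and ITAM signalling had small fold changes. Of 21 genes listed, 19 were measured, 0 passed over all genes and 0 had an unadjusted p under 0.05 (limma), with a median log2 fold change of -0.05 and a range of -0.29 to +0.19. The smallest p belonged to Sirpa, whose product restrains engulfment of cells that carry CD47 (-0.29, adjusted p = 0.660). Next came the inhibitory receptor gene Fcgr2b (-0.17), the kinase gene Syk (-0.17) and Trem1 (+0.19), none of which passed. The Trem2 value was +0.00, at 1.53 in KO and 1.52 in WT livers. Only 2 of the 19 measured genes had a mean of at least 2, and their median log2 fold change was -0.20. The small fold changes thus come mostly from genes under that mean.

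Lysosomal enzymes were all lower in KO livers by their means, with 0 of 4 past the test. Ctsb encodes cathepsin B, a cysteine protease of lysosomes found in many cell types. It read 3.65, 3.77 and 3.10 in KO livers, against 3.77, 4.09 and 4.38 in WT livers. The groups did not overlap, although KO replicate 2 and WT replicate 1 were nearly level. This gave Ctsb a log2 fold change of -0.57 (SE 0.21, limma adjusted p = 0.476), -0.37 without KO replicate 3 and -0.33 after renewed quantile normalization.

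Cathepsin S, encoded by Ctss, is a protease of antigen-presenting cells. Its level was 2.43, 2.47 and 2.11 in KO livers, against 2.23, 3.30 and 3.39 in WT livers. WT replicate 1 lay within the KO range and the other WT arrays far above it. The log2 fold change was -0.64 (SE 0.29, limma adjusted p = 0.576). Without WT replicate 1 it was -1.01 with an adjusted p of 0.0440, which made Ctss the 1 macrophage gene that passed under any alternative run, and without WT replicate 3 it was -0.43 (adjusted p = 0.926).

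Lgmn, which encodes legumain, a lysosomal protease that cleaves after asparagine, read 1.67, 1.5 and 1.70 in KO livers, against 1.76, 1.92 and 1.77 in WT livers. The KO arrays lay just below the WT arrays, and the log2 fold change was -0.20 (limma adjusted p = 0.668). Dnase2a encodes the acid DNase with which island macrophages digest expelled nuclei. It read 1.38, 1.59 and 1.53 in KO livers, against 1.60, 1.65 and 1.46 in WT livers. These values overlapped near the array medians, with a log2 fold change of -0.07 (95% interval -0.32 to 0.18, adjusted p = 0.901).

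Lysosomal genes outside the macrophage set are shared with other liver cells. Of 25 listed, 22 were measured, 3 were lower and 0 higher at an unadjusted p under 0.05, and 0 passed over all genes (limma). Their median log2 fold change was -0.18, and 10 of the 22 had a mean of at least 2. At that threshold 6.44% of all genes were lower, and 22% of all genes with such a mean. Ctsh, a cathepsin gene, read 0.89, 0.94 and 1.0 in KO livers, against 1.55, 1.79 and 1.81 in WT livers, with KO values well below the array medians. Its log2 fold change was -0.78 (adjusted p = 0.118). Lipa, the acid lipase that frees cholesterol from lipoproteins, had -0.62 (adjusted p = 0.336) and the progranulin gene Grn -0.45 (adjusted p = 0.397), both without overlap. Cd63, a membrane protein of late endosomes and granules, went the other way with +0.62 (adjusted p = 0.559).

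Heme handling gave the macrophage gene with the highest fold change and the one with the lowest. Hmox1 encodes heme oxygenase 1, which breaks heme down and is induced by it. The KO arrays read 4.65, 4.79 and 2.94 and the WT arrays 3.61, 3.73 and 3.65. KO replicates 1 and 2 lay above every WT array, and KO replicate 3 below every one. Hmox1 had a log2 fold change of +0.46 (SE 0.43, 95% interval -0.52 to 1.44, limma adjusted p = 0.817), and +1.05 without KO replicate 3 (adjusted p = 0.115). The SD was 1.03 among KO and 0.06 among WT arrays (n = 3 each).

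Spic encodes a transcription factor needed by iron-recycling macrophages. The KO arrays read 2.96, 2.26 and 1.28 and the WT arrays 3.12, 2.96 and 2.96. WT livers were alike, while KO livers spread from the WT level to the floor, with KO replicate 1 level with WT replicates 2 and 3. Its log2 fold change was -0.85 (SE 0.36, limma adjusted p = 0.540), -0.40 without KO replicate 3 and -1.24 without KO replicate 1. In KO replicate 3 both genes of the pair were at their lowest.

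**Figure D3:**
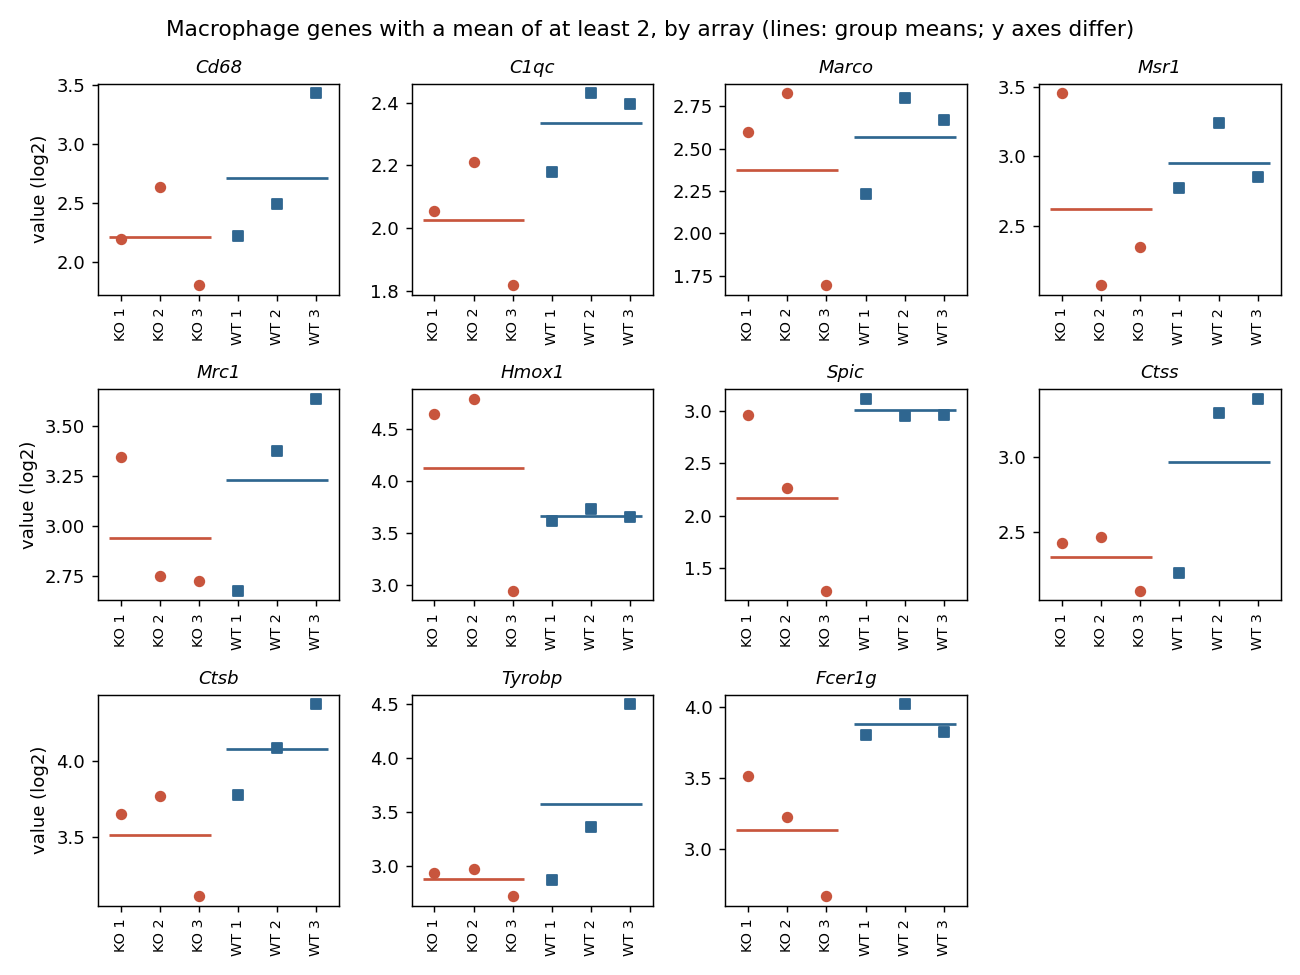
Deposited log2 values by array for the 11 macrophage genes with a mean of at least 2, KO livers in red on the left and WT livers in blue on the right, with lines at the group means. KO replicate 3 is the lowest of 6 arrays in 9 of the 11 panels, and the Hmox1 panel shows KO replicates 1 and 2 at 4.65 and 4.79 above WT values of 3.61 to 3.73.

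Regulators of these genes were among the growth factors and myeloid transcription factors, of which 14 of 16 listed were measured. One was lower and 0 were higher at an unadjusted p under 0.05, and 0 passed over all genes (limma), with a median log2 fold change of 0.05. Nfe2l2 encodes NRF2, an activator of Hmox1 and other antioxidant genes. It read 3.77, 3.89 and 3.99 in KO livers, against 4.15, 4.65 and 4.28 in WT livers, without overlap (log2 fold change -0.47, adjusted p = 0.396). Bach1, which encodes a heme-sensitive repressor of Hmox1 and Spic, had +0.17 (adjusted p = 0.732), Irf5 +0.15 and Rxra -0.09, none past the test. Spi1, the gene of PU.1, had -0.01, at 1.85 in KO and 1.86 in WT livers, and the CSF1R ligand genes Csf1 and Il34 had +0.10 and +0.08.

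Among the macrophage transcription factors themselves, Maf had a log2 fold change of +0.11 (limma adjusted p = 0.914), and its sign turned without KO replicate 2 or WT replicate 1. Nr1h3, which encodes the oxysterol receptor LXR alpha, read 1.06, 1.13 and 1.11 in KO livers, against 1.19, 1.37 and 1.17 in WT livers. The groups did not overlap, but all 6 values lay below their array medians and the difference was -0.14 (adjusted p = 0.760).

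Lineage genes had fold changes of either sign. Csf1r, the receptor on which macrophages depend, read 1.73, 1.29 and 1.28 in KO livers, against 1.33, 1.38 and 1.53 in WT livers. KO replicate 1 was the highest of all and the other KO arrays the lowest, and the log2 fold change was +0.02 (95% interval -0.31 to 0.35, limma adjusted p = 0.984), with a sign that turned after renewed quantile normalization, when centred on array medians, and without KO replicate 1 or WT replicate 1. Adgre1 encodes the classical surface antigen of mouse macrophages. It read 1.48, 1.40 and 1.06 in KO livers, against 1.36, 1.64 and 2.0 in WT livers, which overlapped (-0.36, adjusted p = 0.638).

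Aif1 encodes IBA1, an actin-bundling protein of macrophages. It read 1.35, 1.23 and 1.23 in KO livers, against 1.36, 1.91 and 1.75 in WT livers. The groups did not overlap, although KO replicate 1 and WT replicate 1 were nearly level. All KO values and that of WT replicate 1 lay below their array medians, near the floor of the measurement. Aif1 had a log2 fold change of -0.40 (SE 0.15, limma adjusted p = 0.476). Cd68, a lysosomal glycoprotein of phagocytes, read 2.20, 2.64 and 1.80 in KO livers, against 2.22, 2.50 and 3.43 in WT livers. Only WT replicate 3 stood above the KO range, and the log2 fold change of -0.50 (adjusted p = 0.729) was -0.14 without it. The fractalkine receptor gene Cx3cr1 had +0.03 (adjusted p = 0.966), with a sign that turned when arrays were centred on their medians, with array weights, and without KO replicate 3 or WT replicate 1.

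Receptors for dying cells had small fold changes, none past the test, from -0.11 to +0.07. Mertk encodes a kinase receptor that recognises bridged phosphatidylserine, and read 1.35, 1.45 and 1.40 in KO livers, against 1.51, 1.40 and 1.63 in WT livers (-0.11, 95% interval -0.35 to 0.13, limma adjusted p = 0.821). Timd4 encodes TIM4, which binds phosphatidylserine directly, and read 1.75, 1.70 and 1.66 in KO livers, against 1.54, 1.69 and 1.69 in WT livers (+0.07, 95% interval -0.16 to 0.30, adjusted p = 0.896). Both genes overlapped between the groups, and Mertk lay above the median of 4 arrays and Timd4 above that of all 6. Axl, a relative of Mertk, had -0.03 (adjusted p = 0.966), and its sign turned without KO replicate 1 or WT replicate 2. Among 16 of 17 listed genes of bridging and engulfment that were measured, 1 was lower at an unadjusted p under 0.05, 0 were higher and 0 passed (limma), with a median of 0.01. That gene was Abca1, a cholesterol exporter, with -0.25 (adjusted p = 0.546), followed in order of p by Megf10 (+0.16), Gulp1 (+0.13) and Tyro3 (+0.17).

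C1q is built from the products of C1qa, C1qb and C1qc, and macrophages are a main source of it. C1qc read 2.05, 2.21 and 1.82 in KO livers, against 2.18, 2.43 and 2.39 in WT livers. KO replicate 2 lay just above WT replicate 1, so the groups overlapped by a little (log2 fold change -0.31, SE 0.13, limma adjusted p = 0.552). C1qb read 1.27, 1.28 and 1.13 in KO livers, against 1.39, 1.34 and 1.48 in WT livers, without overlap (-0.18, adjusted p = 0.683). C1qa read 1.22, 1.23 and 1.07 in KO livers, against 1.38, 1.21 and 1.30 in WT livers, with overlap (-0.12, adjusted p = 0.80). KO replicate 3 was the lowest of 6 arrays for all 3 chains, and all C1qa and C1qb values lay below the array medians except C1qb in WT replicate 3. Vsig4, a complement receptor gene of resident macrophages, read 1.16, 0.95 and 1.23 in KO livers, against 1.25, 1.23 and 1.29 in WT livers. KO replicate 3 and WT replicate 2 were nearly level, all values lay below the medians, and the log2 fold change was -0.15 (adjusted p = 0.767).

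Complement components beyond these are made largely by hepatocytes, and the list read here also held genes of receptors and of proteins that protect cells. Of 26 listed, 22 were measured, 4 were lower and 0 higher at an unadjusted p under 0.05, and 0 passed over all genes (limma). C8b, a chain of the membrane attack complex, read 2.74, 2.74 and 2.24 in KO livers, against 3.35, 3.77 and 3.78 in WT livers, a log2 fold change of -1.06 (adjusted p = 0.170). Cd55 and Cd59a, whose products protect cells from complement, each had -0.61 (adjusted p = 0.320 and 0.393), and the C1s protease gene C1s1 had -0.30. All 4, chosen by smallest p, were without overlap. Of the 22 measured genes, 8 had a mean of at least 2. Over all genes of such a mean 22% were lower at an unadjusted p under 0.05, and 18.2% were lower without overlap. Over all genes of any level these shares were 6.44% and 7.1%.

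Among scavenger and lectin receptors the spread within the KO group was widest for Msr1, Marco and Mrc1, and 0 of 7 passed. Cd163 encodes the receptor for hemoglobin bound to haptoglobin. It read 1.11, 1.15 and 1.17 in KO livers, against 1.01, 1.02 and 1.05 in WT livers, the 1 macrophage gene whose KO arrays all lay higher. All 6 values were below the array medians, the log2 fold change was +0.11 (limma adjusted p = 0.783), and it was +0.07 after renewed quantile normalization, when the groups overlapped. Msr1, the class A scavenger receptor gene, spanned 2.07 to 3.45 in KO and 2.77 to 3.24 in WT livers (-0.33, adjusted p = 0.829). KO replicate 1 held the highest value, and without it the log2 fold change was -0.75.

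Marco, a related scavenger receptor gene, spanned 1.69 to 2.83 in KO and 2.23 to 2.80 in WT livers. Its log2 fold change of -0.19 (limma adjusted p = 0.897) turned to +0.15 without KO replicate 3, the array with the lowest value. Mrc1 encodes the mannose receptor, also made by sinusoidal endothelium, and spanned 2.72 to 3.34 in KO and 2.68 to 3.64 in WT livers (-0.29, adjusted p = 0.810). Clec4f, a lectin of mouse Kupffer cells, had -0.19 (adjusted p = 0.78). Cd5l, a secreted survival protein of macrophages, had -0.18 (adjusted p = 0.810). The folate receptor gene Folr2 had +0.01 (adjusted p = 0.995), with a sign that turned in 5 of 12 alternatives.

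Adhesion and iron export genes by which macrophages hold and serve erythroblasts were read as well. These were whole liver values, in which the cells behind them were not resolved. All 13 listed were measured. At an unadjusted p under 0.05, 2 were lower, Slc40a1 and Cd36, and 0 higher, where 6.44% of all genes were lower (limma). Of the 13, 0 passed over all genes, and their median log2 fold change was -0.02. Slc40a1 encodes ferroportin, which exports iron from macrophages. It read 2.52, 2.47 and 2.21 in KO livers, against 2.67, 2.76 and 2.85 in WT livers, without overlap (-0.36, adjusted p = 0.424). Vcam1, which binds an integrin of erythroblasts, read 3.44, 3.56 and 2.81 in KO livers, against 3.56, 3.68 and 3.95 in WT livers, also without overlap (-0.46, adjusted p = 0.562). Cd36, a scavenger receptor gene, had -0.45 (adjusted p = 0.518), with overlap. Maea, which encodes the erythroblast macrophage protein, had -0.21 (adjusted p = 0.576) without overlap. In all, 3 of the 13 were lower without overlap, beside 7.1% of all genes and 18.2% of all genes with a mean of at least 2.

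Arrays of the same genotype also differed from each other, in the macrophage genes and in the spread of all values. As a mean over the 31 genes, the level was 2.0, 1.93 and 1.68 in KO livers, against 1.93, 2.14 and 2.18 in WT livers. KO replicate 1 lay above WT replicate 1 and KO replicate 2 was level with it, so the groups overlapped. KO replicate 3 was the lowest of 6 arrays for 15 of the 31 genes, and WT replicate 3 the highest for 11 and WT replicate 2 for 7. Each gene was set against its own mean over 6 arrays, and the median of these differences was -0.03, -0.04 and -0.18 in KO replicates 1, 2 and 3, against -0.02, 0.13 and 0.12 in WT replicates 1, 2 and 3. Of each array's probe sets, 10% lay above 3.67, 3.82 and 3.68 in KO livers, against 3.68, 4.07 and 4.13 in WT livers. WT replicate 1 thus lay with the KO arrays, and it was the lowest WT array for 10 of the 11 macrophage genes with a mean of at least 2. Array maxima went the other way, at 12.43 to 12.66 in KO and 11.76 to 12.28 in WT livers. The part of this spread in the macrophage values was not tested.

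Marker lists of other liver cells were low in some of the same arrays. The mean over 16 measured hepatoblast markers was 5.91, 6.02 and 5.02 in KO livers, against 5.96, 6.23 and 6.38 in WT livers, again with KO replicate 3 lowest. The mean over 13 erythroblast markers was 4.34, 4.62 and 4.27 in KO livers, against 4.55, 4.93 and 4.98 in WT livers. In the erythroblast list 6 of 13 were lower at an unadjusted p under 0.05, Epb42 (-0.76) and Nfe2 (-0.56) with the smallest p, and in the hepatoblast list 6 of 16, Apoh (-1.24) and Vtn (-0.88) with the smallest p. None was higher at that threshold in either list and 0 passed over all genes (limma). Beside these counts, 6.44% of all genes were lower at that threshold, and 22% of all genes with a mean of at least 2. Of the 13 erythroblast markers 12 had such a mean, and of the 16 hepatoblast markers 15. The part of the erythroblast and hepatoblast shifts in the macrophage values was not tested.

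Other blood cells share Fcer1g, Tyrobp, Ctss and Cd68 with macrophages, so their markers are given as well. The mean over 15 neutrophil markers ranged from 1.90 to 2.3 in KO and from 1.95 to 2.19 in WT livers, with 0 of 15 at an unadjusted p under 0.05, Chil3 (-0.39) and Ltf (+0.20) having the smallest p. Over 8 measured monocyte markers of 10 listed, it ranged from 1.83 to 2.07 in KO and from 1.95 to 2.20 in WT livers, with 1 higher, Fn1 (+0.38), also made by hepatocytes, and 0 lower. Plac8 of that list read 2.41, 2.0 and 1.70 in KO livers, against 2.19, 2.39 and 3.61 in WT livers, so WT replicate 3 was highest, as for Tyrobp and Cd68. The mean over 9 mast cell and basophil markers ranged from 1.25 to 1.38 in KO and from 1.24 to 1.41 in WT livers, with 0 of 9 at an unadjusted p under 0.05, and 6 of them lay below the medians of all 6 arrays. Cpa3, a protease of mast cells, read 1.58, 1.65 and 1.95 in KO livers, against 1.95, 1.99 and 2.78 in WT livers (-0.52), and Ms4a2 had -0.16. Their part in the values of the shared genes was not tested.

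**Figure D4:**
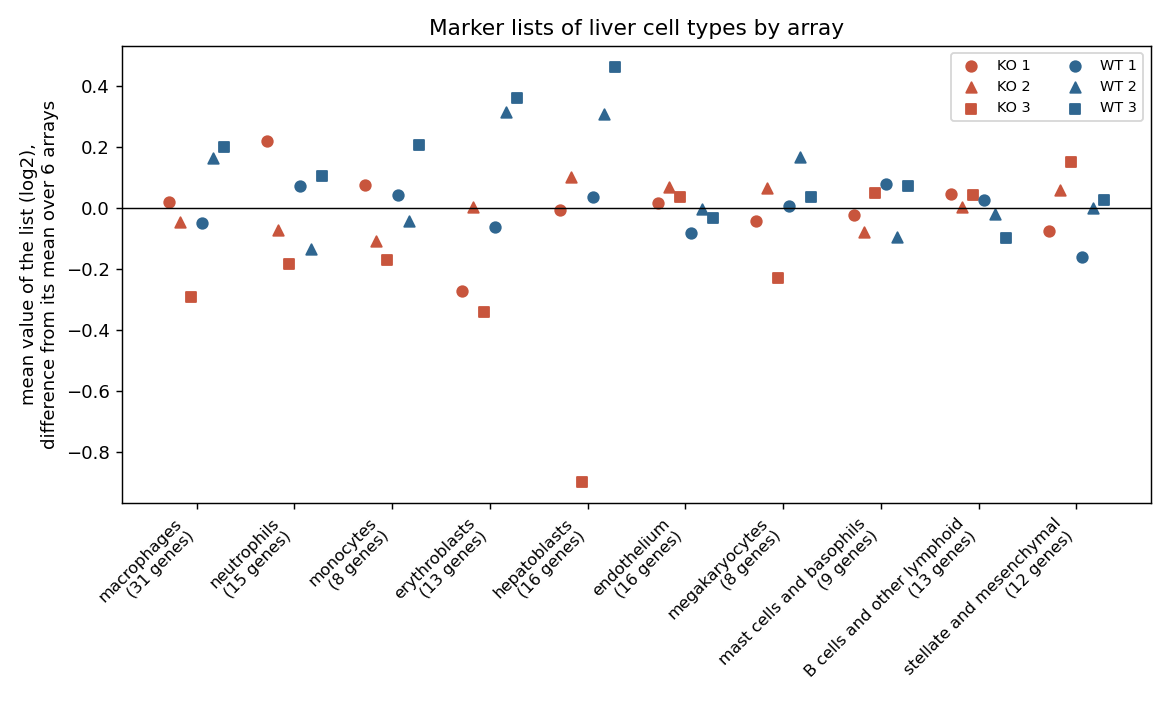
Mean log2 value of each marker list by array, as a difference from the list's own mean over 6 arrays, with KO livers in red left of WT livers in blue and replicate numbers by symbol. KO replicate 3 lies lowest for the macrophage, neutrophil, monocyte, erythroblast, hepatoblast and megakaryocyte lists and highest for the stellate and mesenchymal list.

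Markers of sinusoidal and mesenchymal cells, which border the macrophages, had positive medians, 0.09 for endothelium and 0.11 for the stellate and mesenchymal list. Only 3 endothelial markers had a mean of at least 2, with a median of 0.10. Of the stellate and mesenchymal markers 3 had such a mean, with a median of -0.17. Over all genes under that mean the median was 0.03, and 2.59% of all genes were higher at an unadjusted p under 0.05. The mean over 16 endothelial markers was 1.73 to 1.78 in KO and 1.63 to 1.71 in WT livers, with 2 higher and 0 lower at an unadjusted p under 0.05, Ramp2 (+0.44) and Oit3 (+0.41). Over 12 stellate and mesenchymal markers it was 1.93 to 2.16 in KO and 1.85 to 2.03 in WT livers, with 2 higher, Col1a1 (+0.38) and Rgs5 (+0.35), and 0 lower. None passed over all genes (limma). Among 8 measured megakaryocyte markers 1 was lower at that threshold, Ppbp (-0.72), followed by Gp9 (-0.29), with means of 2.90 to 3.19 in KO and 3.13 to 3.30 in WT livers. Among 13 measured lymphoid markers 1 was lower, Igll1 (-0.32), followed by Cd79a (+0.29), with means of 1.40 to 1.44 in KO and 1.30 to 1.43 in WT livers.

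**Figure D5:**
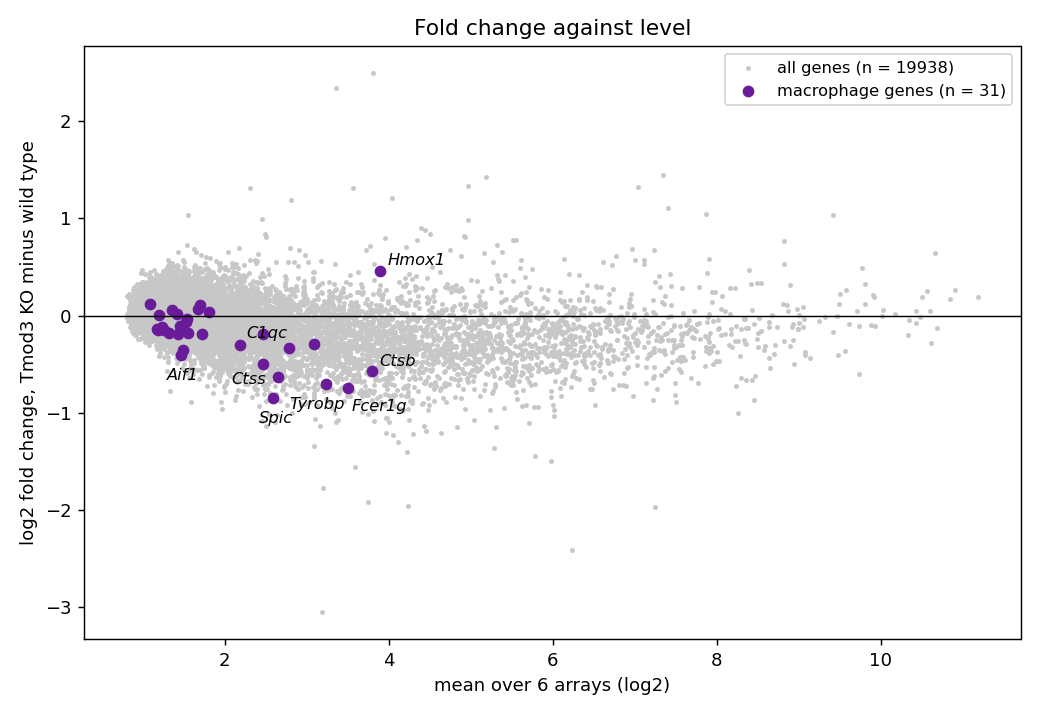
Log2 fold change of KO over WT liver against the mean over 6 arrays for all 19938 genes in grey and the 31 macrophage genes in purple. Genes with a mean of at least 2 centre on -0.19, and the named macrophage genes Fcer1g, Ctsb, Tyrobp, Spic and Ctss lie below that while Hmox1 lies above 0.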

How the data were processed

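Total RNA of 6 fetal livers was extracted with Trizol and labelled from 6 ug, per the labels' protocols. The authors made the deposited log2 values with RMA, which the submitters' processing notes name without a version. No source used here states the log base, and 2 was read from the range. Arrays have no read depth, and their number limits the precision.

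Of 28853 probe sets, 21789 carried 1 gene symbol, and the brightest of a gene's probe sets by mean over 6 arrays stood for it, which gave 19938 genes with no filter on dim ones. The test was limma's two-sided moderated test (version 3.58.1, R 4.3.3, without covariates) and Benjamini-Hochberg adjustment over all genes at 0.05. The fit was tested on simulated data. The named genes were all 31 members, with per-array values for those with an unadjusted p under 0.05, those without overlap and set defining genes, and of each related list up to 4 genes, of each list of other cells up to 2, by smallest p. Csf1, Il34, Spi1 and Trem2, the per-array values of Tyrobp, Ctss and Cd68, and the ranges of Msr1, Marco and Mrc1 were added after their values were seen. Members, lists and tests were chosen with earlier results of these data known. List genes without a probe set of their own were not analysed here. The 13 alternatives were a replicate block, each of 6 arrays left out, renewed quantile normalization, centring on medians, the mean of probe sets, a mean of at least 2, an intensity trend with robust fitting, and array weights.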

Additional observations from a re-analysis of the deposited data

How the results depend on the processing

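No macrophage gene passed under the alternatives run except Ctss without WT replicate 1, so the count of 0 ranged from 0 to 1 without 1 array. Of 31 macrophage genes 24 kept their sign under all alternatives run. Without 1 array, the others ranged from -0.13 to 0.095 (Csf1r), -0.069 to 0.12 (Cx3cr1), -0.14 to 0.057 (Axl), -0.42 to 0.15 (Marco), -0.11 to 0.084 (Folr2), -0.091 to 0.14 (Cd14) and -0.021 to 0.29 (Maf). Renewed quantile normalization gave Csf1r -0.0014 and Folr2 -0.038. Centring gave Csf1r -0.019, Cx3cr1 -0.0039 and Folr2 -0.031, and array weights gave Cx3cr1 -0.020 and Folr2 -0.012. The causes were not tested.

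The count of macrophage genes lower at an unadjusted p under 0.05 was 5, beside 6.44% of all genes. It was 2 after quantile normalization (4.66% of all genes), 3 among genes with a mean of at least 2 (15.1%, with only 11 macrophage genes tested), 8 with array weights (9.93%) and 1 to 10 without 1 array (3.95% to 11.2%). The higher count of 0 was 0 to 1 without 1 array, the 1 being Hmox1. Their median log2 fold change of -0.18 was -0.14 to -0.19 without 1 array, and -0.50 for those with a mean of at least 2, where all genes had -0.19. The 3 calls over all genes became 0 with the replicate block, 6 after quantile normalization, 11 with array weights and 0 to 95 without 1 array. Tmod3 had -3.06 with an adjusted p of 0.0897 under the replicate block, and -2.88 to -3.41 without 1 array. The block left 4 macrophage genes lower at an unadjusted p under 0.05, and it changed no macrophage call. KO and WT arrays of the same number deviated from their group means with correlations of 0.11, 0.06 and -0.11. Not every array correlated best with its own number. Deviations from a mean of 3 arrays are tied to each other, so these values cannot show whether arrays of a number were paired.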

Other observations

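Genes of innate sensing are shared by macrophages and other cells. Of 22 measured, with a median log2 fold change of 0.07, 2 were lower and 1 higher at an unadjusted p under 0.05, and 0 passed over all genes (limma). Ly96, the partner of TLR4 in binding lipopolysaccharide, read 1.39, 1.0 and 1.04 in KO livers, against 1.66, 2.20 and 2.25 in WT livers, a log2 fold change of -0.89 (adjusted p = 0.203). Its KO values were below the array medians. The chemokine gene Ccl9 read 1.93, 1.57 and 1.36 in KO livers, against 2.51, 2.12 and 2.44 in WT livers (-0.74, adjusted p = 0.264). Ccl2, which draws monocytes, read 1.61, 1.72 and 2.06 in KO livers, against 1.49, 1.26 and 1.26 in WT livers (+0.46, adjusted p = 0.402), and Ccl3 had +0.20. None of these 4 genes, chosen by smallest p, overlapped between the groups, with 2 lower and 2 higher. Over all genes 7.1% were lower without overlap and 6.14% higher. At the unadjusted threshold 6.44% of all genes were lower and 2.59% higher. Only 1 of the 22 measured genes had a mean of at least 2.

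Undigested DNA in macrophages that lack DNase II is known in mice to raise interferon beta, and genes of nucleic acid sensing and interferon were read next. Of 23 listed, 18 were measured, 1 was lower and 1 higher at an unadjusted p under 0.05, and 0 passed over all genes (limma), with a median log2 fold change of -0.01. Aim2, a sensor of DNA in the cytosol, had -0.69 (adjusted p = 0.407). Ifnb1, the interferon beta gene, had +0.30 (adjusted p = 0.501), at 1.40, 1.09 and 1.15 in KO livers, against 0.96, 0.86 and 0.92 in WT livers, all below the array medians. The interferon-induced gene Ifit1 had -0.19 and the exonuclease gene Trex1 +0.22, neither past the test.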
